A study of Arabidopsis thaliana with 8 samples.

Results

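Calcium sensor and receptor-like kinase families were examined in leaf RNA of wild type Arabidopsis thaliana and of fbn5-1. Members were defined by symbol, as genes with a probe set of their own whose symbol is CML, CPK, CIPK, CBL, CNGC, CRK, WAKL or PERK followed by a number. This gave 6 of the 16546 genes that have a probe set of their own, from 28583 probe sets of which 16746 name 1 gene. All 6 are calmodulin-like: CML23, CML37, CML38, CML41, CML42 and CML43, each with 1 probe set. No gene of the calcium-dependent kinases (CPK), the CBL sensors and their CIPK kinases, the cyclic nucleotide-gated channels (CNGC) or the receptor-like kinases (CRK, WAKL and PERK) met the rule. Of 148 genes with such symbols in the RefSeq gene table, 141 are named by no probe set in the annotation used here and 1, CML30, is named only together with a second gene; these were not analysed here. The kinase families of the label are therefore not named in this annotation, where 11079 of the 28583 probe sets carry no symbol. Their signals could not be examined, and what follows concerns the 6 calmodulin-like genes alone.

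The study compared 4 arrays labelled wild type (Control plant) with 4 labelled fbn5-1, in which a T-DNA is inserted in FBN5 (AT5G09820), the gene of a plastid fibrillin linked to plastoquinone synthesis. Both genotypes are in the Col-0 accession. Plants of both genotypes were 3 weeks old, untreated, and raised on 0.5x MS medium with 1% sucrose at 25 °C, 60% humidity and 16 h of light with 8 h of dark, and RNA was taken from leaf. The labels do not say whether replicates came from separate plants. The p-values therefore set a difference between labels against a spread among arrays of a label that can be technical. The number of arrays limits the precision.

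Calcium ions carry signals in plant cells: channels let calcium into the cytosol, and EF-hand proteins bind it and pass the signal to their partners. Calmodulin-like proteins are such EF-hand sensors and have no kinase domain of their own, whereas CPK proteins join a sensor to a kinase and CBL proteins act through CIPK kinases. In leaves, transcripts of several calmodulin-like genes are known to appear quickly and briefly after touch, wounding, herbivory, low oxygen or microbial elicitors.

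FBN5, the disrupted gene, was not reduced in the arrays that carry its name. It had log2 signals of 3.54, 3.35, 3.43 and 5.15 on wild type arrays 1 to 4 and of 4.71, 4.52, 4.76 and 4.58 on the arrays labelled fbn5-1. The difference of 0.78 (SE 0.36, limma adjusted p = 0.173) did not pass the test, and it was 1.20 without wild type array 4 (SE 0.11, limma adjusted p = 0.000524). The position of its probes and of the insertion is not given, so this level may check nothing; arrays are called by their labels, and every direction rests on them. Wild type array 4 stood apart. Its correlation with the other wild type arrays over all probe sets was 0.961 to 0.964, while each of the other 3 had a correlation of 0.991 to 0.992 with the wild type array closest to it. On array 4, 839 probe sets lay at least 1 log2 unit above the mean of wild type arrays 1 to 3 and 548 at least 1 below. On wild type arrays 1, 2 and 3, compared in the same way with the other wild type arrays, 36, 171 and 160 lay at least 1 above and 201, 249 and 157 at least 1 below. Leaf markers were bright on all arrays: RCA, the Rubisco activase, lay between 10.87 and 11.08. Of the 5 pollen and flower markers, VGD1 lay between 1.33 and 1.95 and AGL66 between 1.27 and 2.05. The others were brighter: AGL30 lay between 6.42 and 7.05, AGL65 between 5.36 and 6.21, and AGL104 between 2.52 and 5.22.

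The 6 genes were dim in leaf. On the 7 arrays other than wild type array 4, all 42 of their log2 signals lay between 1.07 and 2.27, within the lowest 29.3% of the probe sets of an array. Only probe sets whose 8-array mean exceeded 2.79, the 40th percentile, were tested, and 0 of the 6 passed. Detection calls were not used here, so such values are called dim and not absent. In whole-leaf RNA, fewer cells with a transcript and less transcript per cell cannot be told apart.

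**Figure D1:**
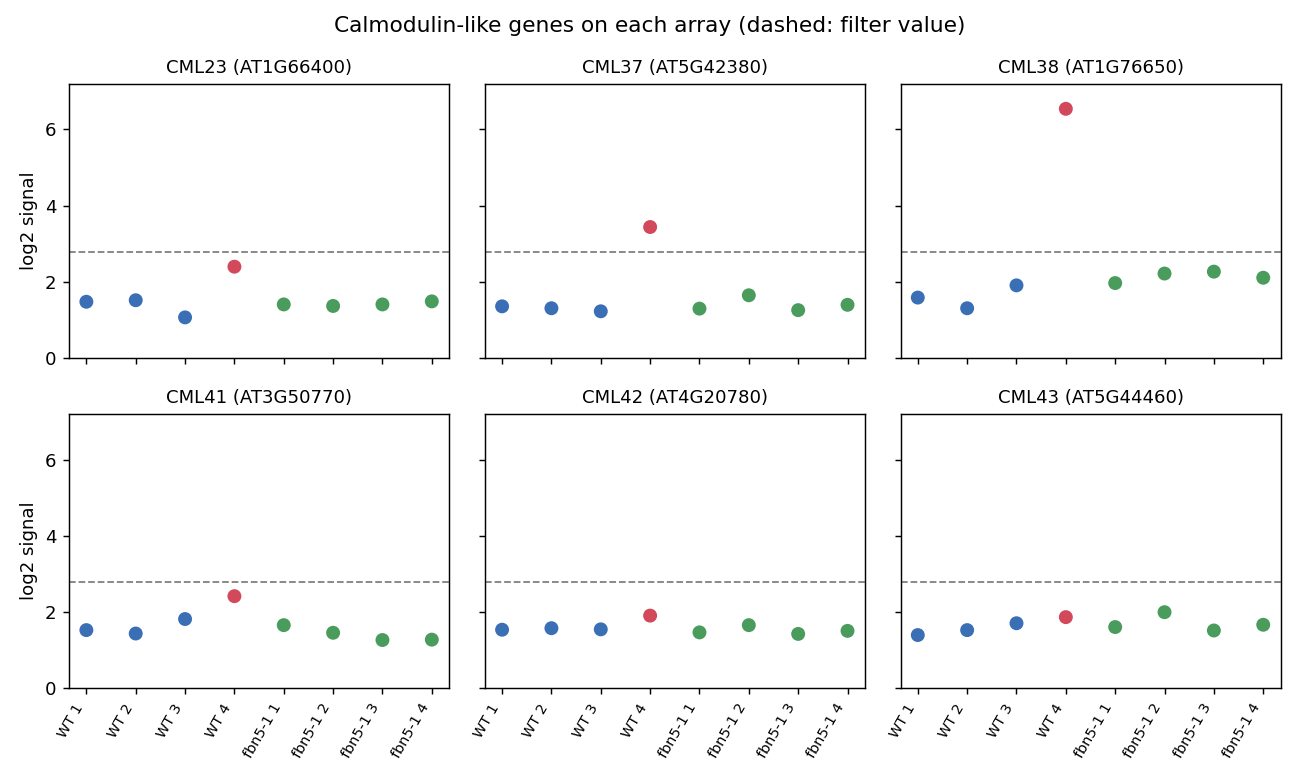
Log2 signal (vertical axis) of the 6 calmodulin-like genes on each array (horizontal axis); blue points are wild type arrays 1 to 3, red wild type array 4 and green the 4 fbn5-1 arrays, 1 point per array, and the dashed line is the filter value of 2.79. Only CML37 at 3.44 and CML38 at 6.54, both on wild type array 4, lie above that line.

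CML38 (AT1G76650) encodes a sensor known from the responses to low oxygen and wounding. Its log2 signal was 1.59, 1.31 and 1.91 on wild type arrays 1 to 3, 6.54 on wild type array 4, and 1.97, 2.22, 2.27 and 2.11 on the fbn5-1 arrays. Wild type array 4 was far above the 7 others, and the 4 fbn5-1 arrays lay just above wild type arrays 1 to 3. The gap between wild type array 4 and the mean of the other 3 was 4.94, beside an SD of 0.30 among those 3. Of all 28583 probe sets, 29 had a gap of this size or more (0.101%). The gap was 2.52 with 16 added to the linear signal, a step that shrinks differences between dim values. The rank of CML38 on wild type array 4 was the 88.2 percentile, against the 7.09 to 29.3 percentile on the other arrays.

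CML37 (AT5G42380), a close relative of CML38, is known from jasmonate-dependent defence against herbivores. Its log2 signal was 1.36, 1.31 and 1.23 on wild type arrays 1 to 3, 3.44 on wild type array 4, and 1.3, 1.65, 1.26 and 1.40 on the fbn5-1 arrays. Wild type array 4 again stood above the 7 others, whose 2 groups overlapped. The gap was 2.14, beside an SD of 0.07 among wild type arrays 1 to 3, and 287 probe sets (1.00%) had a gap of this size or more. With 16 added to the linear signal it was 0.54.

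CML23 (AT1G66400), the partner of CML24 in flowering and nitric oxide signalling, had log2 signals of 1.48, 1.52, 1.07 and 2.40 on wild type arrays 1 to 4, and of 1.41, 1.37, 1.41 and 1.49 on the fbn5-1 arrays. CML41 (AT3G50770), which is known to act at plasmodesmata in the response to bacterial flagellin, had 1.53, 1.44, 1.82 and 2.42 on wild type arrays 1 to 4, and 1.66, 1.46, 1.27 and 1.28 on the fbn5-1 arrays. Both were highest on wild type array 4, with gaps of 1.04 and 0.82, and both stayed below the filter value there. These gaps were 0.20 and 0.17 with 16 added to the linear signal.

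CML42 and CML43 are close relatives of each other; CML42 is known from herbivore defence and trichome branching, and CML43 from responses to pathogens. CML42 (AT4G20780) had log2 signals of 1.54, 1.58, 1.55 and 1.91 on wild type arrays 1 to 4, and of 1.47, 1.66, 1.43 and 1.51 on the fbn5-1 arrays. CML43 (AT5G44460) had 1.40, 1.53, 1.71 and 1.87 on wild type arrays 1 to 4, and 1.61, 2, 1.52 and 1.67 on the fbn5-1 arrays. Wild type array 4 was the highest of the 8 arrays for CML42, with a gap of 0.35, but not for CML43, whose highest value was on fbn5-1 array 2 and whose gap was 0.32.

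In all, wild type array 4 was the highest of the 8 arrays for 5 of the 6 genes, beside 17.1% of all probe sets, 16.3% of those tested and 18.4% of those below the filter value. It lay at least 1 log2 unit above the mean of wild type arrays 1 to 3 for CML23, CML37 and CML38, 3 of 6, beside 2.94% of all probe sets, 3.69% of those tested and 1.81% of those below the filter value. None of the 6 lay at least 1 below, beside 1.92% of all probe sets. The median gap of the 6 was 0.93, beside -0.01 over all probe sets. With 16 added to the linear signal, CML38 alone kept a gap of at least 1, and that of CML23 was 0.99 with quantile normalization and 0.90 without wild type array 3. This contrast sets 1 array against 3 and has no test. The 6 genes were proposed with earlier results on these arrays known, CML37 and CML38 being the examples in the rule, so these counts are a description.

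**Figure D2:**
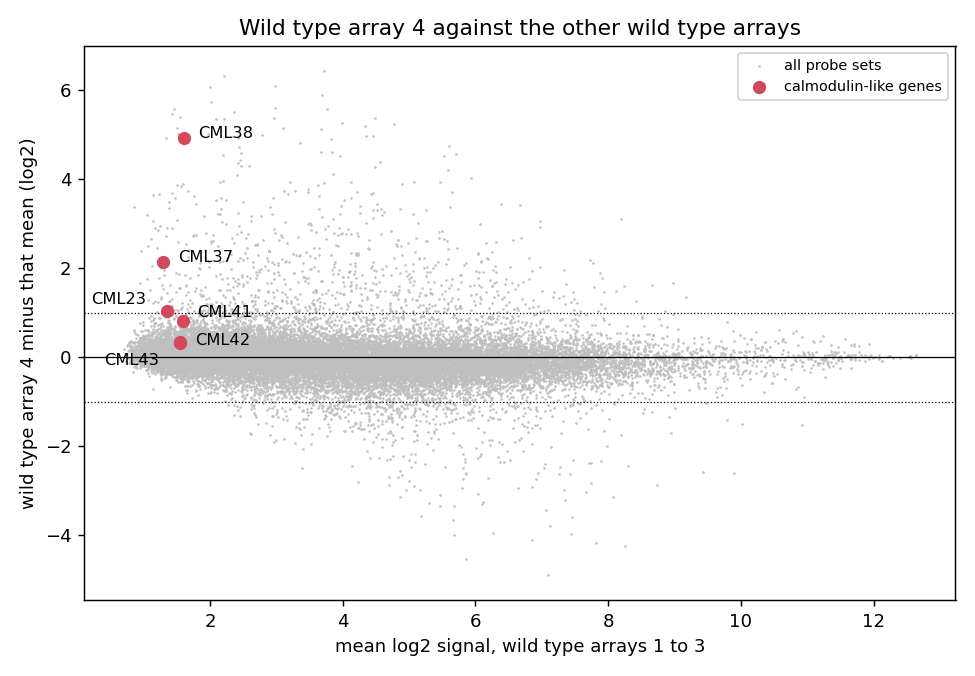
Log2 signal on wild type array 4 minus the mean of wild type arrays 1 to 3 (vertical axis) against that mean (horizontal axis), 1 grey point per probe set, with the 6 calmodulin-like genes in red and dotted lines at differences of 1. CML38 at 4.94 and CML37 at 2.14 lie above most dim probe sets, while CML42 and CML43 nearly coincide at 0.35 and 0.32.

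The comparison the design implies, arrays labelled fbn5-1 against wild type, could not be made for any of the 6 genes under the filter, while 16.8% of the tested probe sets were called. Fitted without a filter, 0 of the 6 were called in either direction by limma at an adjusted p under 0.05, beside 8.5% of probe sets (4.46% higher and 4.04% lower), and 0 had an unadjusted p under 0.05. The difference was -0.70 for CML38 (SE 0.98, limma adjusted p = 0.728) and -0.43 for CML37 (SE 0.43, limma adjusted p = 0.605). It was -0.39 for CML41 (SE 0.20, limma adjusted p = 0.286). CML23, CML42 and CML43 had differences of -0.20, -0.13 and 0.07, with limma adjusted p of 0.665, 0.515 and 0.80. The median of the 6 differences was -0.29, beside 0.01 over all probe sets.

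Wild type array 4 decided the sign of the differences of CML38, CML37 and CML23. Without it and without a filter, CML38 had a difference of 0.54 (SE 0.15, limma adjusted p = 0.0414) and was called higher in the arrays labelled fbn5-1, 1 of 6 beside 5.41% of probe sets; 0 of 6 were called lower, beside 6.92%, of 12.3% called in all. Its 4 fbn5-1 arrays all lay above wild type arrays 1 to 3, as did those of 12.3% of all probe sets and 8.67% of those below the filter value. No other array's removal gave CML38 an adjusted p under 0.05. All 7 signals behind this call lie below the filter value, and with 16 added to the linear signal the difference was 0.10. CML37 and CML23, without wild type array 4, had differences of 0.10 and 0.06 and were not called, with limma adjusted p of 0.602 and 0.783. CML41, CML42 and CML43 had -0.18, -0.04 and 0.15 and were not called either. The median of the 6 differences was then 0.08.

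The genes next to CML38 and CML37 in RefSeq gene order did not stand apart on wild type array 4. AT1G76640, beside CML38, is listed as a calmodulin-like gene too. Its log2 signal was 1.33, 1.37, 1.36 and 1.42 on wild type arrays 1 to 4 and 1.40, 1.60, 1.70 and 1.38 on the fbn5-1 arrays. Its gap on wild type array 4 was 0.07, where CML38 had 4.94. The gene table gives the synonym CML39 both to AT1G76640 and to CML37, so the locus name is used here. AT1G76660, on the other side of CML38, had a gap of -0.19. AT5G42370 and SPP, on both sides of CML37, had gaps of 0.18 and 0.03. The 9 neighbours of the 6 genes that have a probe set of their own all had gaps between -0.35 and 0.18.

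A further list of calcium genes was set by symbol, so it misses genes without such a symbol, as AT1G76640. It gave 9 genes with a probe set of their own. All 9 were glutamate receptor-like channels (GLR), which admit calcium and are known from wound signalling. Of these, 5 were tested, and 0 were called higher or lower in the arrays labelled fbn5-1, beside 16.8% of all tested probe sets. Their median difference was -0.01, beside -0.02 over all tested probe sets. None of the 9 had a gap of at least 1 on wild type array 4, beside 2.94% of all probe sets. GLR2.8, with the largest gap of them, had log2 signals of 1.82, 2.21, 2.06 and 2.81 on wild type arrays 1 to 4 and 2.78, 2.30, 2.62 and 2.44 on the fbn5-1 arrays, so the 4 fbn5-1 arrays lay between wild type array 2 and array 4. All 4 fbn5-1 arrays lay above wild type arrays 1 to 3 for 12.3% of all probe sets too. GLR3.3 and GLR3.6, known to carry the wound signal between leaves, had gaps of 0.01 and -0.62.

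Among the receptor kinases and partners listed by symbol, BIK1, EFR, FER and THE1 had a probe set of their own. All 4 were tested, and 0 were called in either direction (median difference 0.06), beside 16.8% of all tested probe sets. None had a gap of at least 1, beside 3.69% of tested probe sets. BIK1, a cytoplasmic kinase that acts downstream of immune receptors, had the largest gap, 0.74. Its log2 signals were 5.82, 5.91, 5.99 and 6.65 on wild type arrays 1 to 4 and 5.94, 6.35, 6.43 and 6.17 on the fbn5-1 arrays. The fbn5-1 arrays lay below wild type array 4 and partly above the other wild type arrays. Its difference was 0.13 (SE 0.19, limma adjusted p = 0.681).

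Many early response genes are known to be induced within a short time of wounding or elicitation. The list used under this name is broader and also holds the defence genes PR1, EDS1 and SAG101. Of 69 genes in this list, written with earlier results known, 8 had a probe set of their own. For STZ, PUB22, PUB23, PUB24 and WRKY22, 5 of these 8, wild type array 4 lay at least 1 above the mean of the other 3. The share was 3.69% of tested probe sets and 2.94% of all probe sets. STZ, a zinc finger repressor of stress responses, had log2 signals of 4.17, 4.33, 4.95 and 9.85 on wild type arrays 1 to 4 and 5.56, 6.79, 6.70 and 6.53 on the fbn5-1 arrays, a gap of 5.37. As with CML38 and PUB23, the fbn5-1 arrays lay above wild type arrays 1 to 3 and below array 4. For 12.3% of all probe sets the 4 fbn5-1 arrays all lay above wild type arrays 1 to 3, so this order is not particular to these genes. The U-box ubiquitin ligases PUB22, PUB23 and PUB24, which dampen immune signalling, had gaps of 2.83, 3.34 and 2.07, and WRKY22, an immune transcription factor, had 2.64. WRKY29, often paired with WRKY22 in immune signalling, had a gap of -0.66. SAG101 and ZAT7 had gaps of 0.50 and 0.88. Of the 7 tested, 0 were called between the labels (median difference 0.005), beside 16.8% of all tested probe sets. STZ had a difference of 0.57 (SE 1.12, limma adjusted p = 0.768), and of 1.91 without wild type array 4 (SE 0.30, limma adjusted p = 0.00323).

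**Figure D3:**
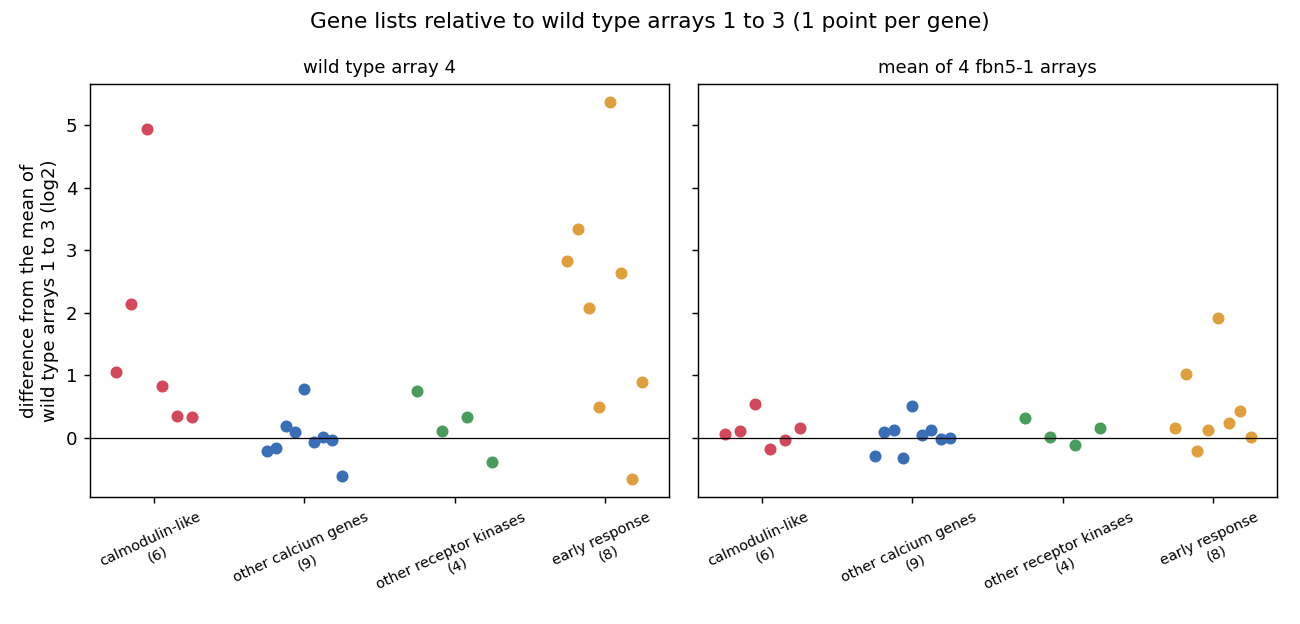
Difference in log2 signal from the mean of wild type arrays 1 to 3 (vertical axis) for wild type array 4 (left) and for the mean of the 4 fbn5-1 arrays (right), 1 point per gene, in 4 gene lists (horizontal axis, number of genes in brackets). On wild type array 4, CML38 at 4.94 and STZ at 5.37 are highest, and the glutamate receptor-like genes and receptor kinases stay between -0.62 and 0.78.

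Markers of other tissues were set beside the CML37 and CML38 signals of wild type array 4. Only part of each list had a probe set of its own: 5 of 18 leaf mesophyll and 3 of 9 guard cell markers. For pollen and flower it was 5 of 16, and for root 3 of 13. Summed on the linear scale and given as log2, the 5 leaf mesophyll markers were at 12.7 on wild type array 4 and at 12.77 to 12.85 on arrays 1 to 3, with 12.67 to 12.73 on the fbn5-1 arrays. The 3 guard cell markers were at 6.01 on wild type array 4 and at 5.62 to 6.13 on arrays 1 to 3. On the fbn5-1 arrays these 3 were at 5.75 to 6.53. FMA was the brightest of them, with a mean of 5.58 over the 8 arrays. The 5 pollen and flower markers were at 7.61 on wild type array 4 and at 7.81 to 7.92 on arrays 1 to 3, with 7.14 to 7.497 on the fbn5-1 arrays. AGL30 and AGL65 were the brightest of these 5, with means of 6.79 and 5.81 over the 8 arrays. VGD1 and AGL66 were dim, with means of 1.61 and 1.58. The 3 root markers were at 6.95 on wild type array 4 and at 9.25 to 9.73 on arrays 1 to 3, with 9.28 to 9.74 on the fbn5-1 arrays. The brightest of them was PYK10, a beta-glucosidase of endoplasmic reticulum bodies known from roots and seedlings, which had log2 signals of 9.23, 9.70 and 9.34 on wild type arrays 1 to 3, 6.84 on wild type array 4 and 9.26 to 9.72 on the fbn5-1 arrays. EXPA7 and EXPA18, root hair expansins, had gaps of -0.17 and -0.53. Between the labels, 16.8% of all tested probe sets were called. SPCH, 1 of 2 tested guard cell markers, and TRY, the 1 trichome and epidermis marker, were called higher in the arrays labelled fbn5-1. SPCH varied from 2.86 to 5.32 on the fbn5-1 arrays and from 2.21 to 2.79 on the wild type arrays. FMA, the other tested guard cell marker, went the other way, with a difference of -0.19, and was not called. Called lower were PSAE-1, 1 of 5 tested leaf markers, and SWEET11, the 1 vascular marker. AGL65 and AGL104, 2 of 3 tested pollen and flower markers, were called lower too. The 1 tested root marker was not called. The part of these differences in the CML37 and CML38 values was not tested.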

How the data were processed

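Total RNA of 8 leaf samples was hybridised to 1-colour Affymetrix arrays, with biotin-labelled cRNA from 200 ng of RNA, per the labels' protocols. The values the authors deposited were read as log2 signals, a base inferred from their range. The submitters' processing notes name MAS5; other steps are not given in the sources used here. The scaling was left as deposited (array medians 3.42 to 3.49).

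Symbols came from GEO's platform annotation, updated by gene number through RefSeq (TAIR10.1), in which 16601 of 16746 were found. Its coordinates were not used, and no sequences are given. Groups were compared with limma 3.58.1 in R 4.3.3, as fbn5-1 minus wild type. The settings were eBayes with an intensity trend, two-sided tests and Benjamini-Hochberg over 17147 tested probe sets. The fit was also run on simulated data in which no array stood apart, so that run does not bear on wild type array 4. A gap is wild type array 4 minus the mean of wild type arrays 1 to 3. The text names every member, FBN5, and, from each of the lists of other calcium genes, other receptor kinases and early response genes, the gene with the largest gap and called members (these 3 lists had none); other genes were named after their values were seen. Members and lists were chosen with earlier results of these data known. Fits that drop both the filter and an array were added after seeing the data. Seed markers had no probe set of their own; the trichome and epidermis list (TRY) and the vascular list (SWEET11) had no gap of at least 1. FDH was taken out of the epidermis list, since its probe set here is that of AT5G14780, a formate dehydrogenase.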

Additional observations from a re-analysis of the deposited data

Results flagged for a closer look

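Outlying arrays were sought for 37 genes: the 6 calmodulin-like genes, FBN5, the 3 other gene lists and the neighbours of CML37 and CML38. RCA, VGD1, PYK10, EXPA7 and EXPA18 were among them too, and the other tissue markers were not. On wild type array 4, 11 of these 37 genes lay farther from the other 3 wild type arrays than Dixon's 95% critical value for 4 samples. The log2 signals on that array were 6.54 for CML38, 3.44 for CML37, 1.91 for CML42 and 5.15 for FBN5 (AT5G09820). They were 9.85 for STZ, 5.29 for PUB22, 7.91 for PUB23, 7.47 for PUB24 and 2.13 for the zinc finger gene ZAT7 of the early response list. Array 4 was the lowest of the wild type arrays for GLR3.6 at 3.58 and for PYK10 at 6.84. Chance alone gives about 5% of groups beyond this value, but several of these genes were chosen with their level on array 4 known or for it. Wild type array 4 also stood apart over all probe sets, and the share of those beyond this value was not computed. The count is therefore a description and no test, and it does not set these genes apart from others. For CML42 the distance is small, and it passed the value because wild type arrays 1 to 3 lay within 1.54 to 1.58. CML23, CML41 and CML43 did not pass the value, and neither did the fbn5-1 arrays of any of the 37 genes.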

How the results depend on the processing

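With the filter, 2876 of 17147 tested probe sets were called. The count was 4450 with array weights, 1731 with the replicate number as a block, and 1738 to 3875 when 1 array was left out. Without a filter, 2430 of all 28583 probe sets were called. Same-numbered arrays did not deviate together (correlations of 0.157, -0.187, -0.04 and 0.0019 for numbers 1 to 4), so the numbers were not taken to pair the samples. The 6 calmodulin-like genes were all tested only where no filter was set: 0 were called in either direction with all arrays, and when 1 array was left out too, 0 to 1 were called higher, the 1 being CML38 without wild type array 4, and 0 lower. Under the filtered alternatives none of the 6 was tested, with 2 exceptions, so they say nothing of these genes. The exceptions concern CML38, which passed the filter with 16 added to the linear signal and with the whole series table, through its value on wild type array 4, and was not called (limma adjusted p = 0.518 and 0.711). The count of genes at least 1 higher on wild type array 4 was 3; it was 1 with 16 added, 2 with quantile normalization and 2 to 3 when wild type array 1, 2 or 3 was left out, the 2 being without array 3. No filter enters it. FBN5 was called with array weights (1.14, limma adjusted p = 0.00396) and without wild type array 4, and STZ without wild type array 4. Dim signal limits all 6 genes: the size of any difference among values under 2.79 depends on how signal near the floor is treated.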
